A study of Mus musculus with 20 samples.

Results

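Transcripts of 9 transient receptor potential (TRP) channel genes, Trpa1, Trpc1, Trpc4, Trpc5, Trpc6, Trpm2, Trpm3, Trpm4 and Trpv2, were examined in the neocortex (NCX) and hippocampus (HP) of cTKO and control mice. The genes were taken by symbol from the 24421 symbols counted in each library, and all 9 were present. In cTKO mice, floxed App, Aplp1 and Aplp2 are deleted by Cre recombinase under the Camk2a promoter, which acts after birth in excitatory neurons of the forebrain while other cell types keep the genes. Their labels give the genotype as APP/APLP1/APLP2 -/-. Controls, which the labels call wild type, were littermates with the floxed alleles and no Cre, and both shared a hybrid background of C57BL/6 J and 129. All mice were 3 months old, both sexes were used, and each combination of genotype and region held 5 libraries, making 20 in all. The study took both regions from 5 cTKO and 5 control mice, so the libraries of the regions do not come from separate animals.

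TRP channels are cation channels, most of which admit calcium, and a working channel is made of several subunits that can differ. The TRPC channels open downstream of receptors coupled to Gq and phospholipase C. Members of the TRPM and TRPV groups respond to heat, internal calcium, oxidative products or lipids, and TRPA1 is a sensor of reactive irritants best known from sensory neurons. In the forebrain, TRPC4 and TRPC5 are known for the sustained depolarisations that follow activation of metabotropic and muscarinic receptors.

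Total counts per library ranged from 12169474 to 25331954, and 3 counts, taken as the smallest level a library can show, corresponded to between 0.118 and 0.247 CPM, the count scaled to a common library size. App, Aplp1 and Aplp2 were lower in cTKO libraries of both regions, with log2 fold changes from -1.25 to -2.10. Control HP library 3 stood apart for its choroid plexus markers, with a summed level over 7 markers of 2729 CPM against 78.6 to 497 CPM in the other control HP libraries. Libraries cTKO NCX 5 and cTKO HP 4 had the highest sums of 10 embryonic markers, at 1010 and 618 CPM, and the other libraries lay between 49.5 and 385 CPM. At 0 counts were 4 of the 10 in cTKO NCX 5 and 3 in cTKO HP 4, all Hox genes, against 3 to 6 markers in the other libraries. The sums thus rest on part of the list. The regions were extracted with different RNA kits, so kit and region cannot be told apart. All p-values measure the spread between these libraries.

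Trpa1, on chr1:14872648-14918862 (GRCm38, minus strand), had the largest fold change between genotypes among the members tested. The control HP libraries 1 to 5 held 32, 58, 27, 42 and 56 counts of it. The cTKO HP libraries held 2, 3, 4, 0 and 4 counts. Every control library was thus above every cTKO library, and 3 of the 5 cTKO libraries were at or under 3 counts. As CPM, control HP had a level of 2.05 ± 0.675 and cTKO HP a level of 0.109 ± 0.0704 (SD, n = 5).

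The log2 fold change of Trpa1 in the hippocampus was -4.13 with a standard error of 0.43, and its FDR in edgeR's quasi-likelihood test was 0.0007. It was the only member of 9 with an FDR under 0.05, where 0.489% of the 13702 genes tested passed, and 0.175% passed as lower. Summed over libraries, 215 counts in controls stood against 13 in cTKO mice, a ratio of 18.2 with an exact 95% interval of 10.4 to 34.8 that covers counting error only. The exact permutation test of log2 CPM gave p = 0.00794, two-sided, the smallest value that 5 against 5 libraries allow. Genotypes did not overlap for 3.17% of the genes tested. Trpa1 passed the filter on low counts (CPM above 1 in at least 5 libraries) only through the control libraries, since 0 of 5 cTKO HP libraries exceeded 1 CPM, so a difference was built into its passing. A filter on a mean CPM above 0.5 was also passed only through the control libraries, since cTKO HP libraries reached at most 0.169 CPM. With that filter the log2 fold change was also -4.13, with an FDR of 0.00125. With no filter, the log2 fold change was -4.13 and the FDR 0.000725. Without cTKO HP 4, the library with 0 counts and a high embryonic marker sum, it was -3.85. Trpa1 kept an FDR of 0.00684 or less with any of the 10 HP libraries left out, where the filter on mean CPM was needed whenever a control was removed.

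**Figure D1:**
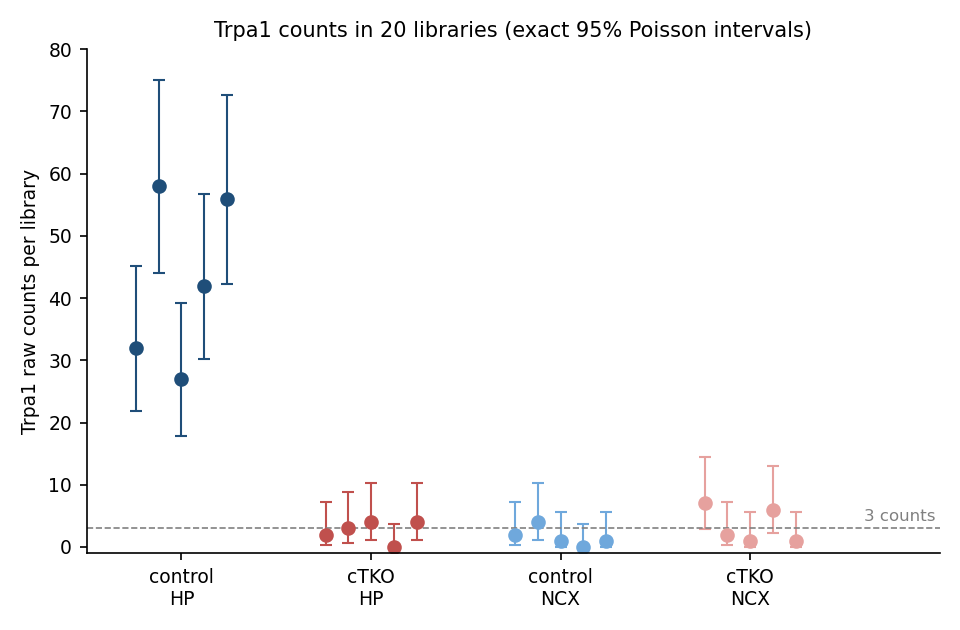
Raw counts of Trpa1 (vertical axis) in each of the 20 libraries, grouped by genotype and region on the horizontal axis. Points are libraries 1 to 5 from left to right, bars are exact 95% Poisson intervals and the dashed line marks 3 counts. The 5 control HP libraries lie between 27 and 58 counts and the other 15 libraries between 0 and 7.

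In bulk tissue, fewer cells of a type and less RNA per cell cannot be told apart. Prox1, Lct, Fibcd1, C1ql2 and Iyd are markers that define hippocampal fields. Their sum was 327 to 437 CPM in control HP and 351 to 464 CPM in cTKO HP. By the quasi-likelihood test 0 of 5 had an FDR under 0.05, where 0.489% of all genes did. An unadjusted p under 0.05 was reached by 3 of them, against 12% of all genes. These 3 differed in direction, with log2 fold changes of 0.77 for C1ql2, -0.54 for Fibcd1 and -0.86 for Iyd. Of the 4 markers of excitatory neurons, 0 passed the FDR, and their sums were 10542 to 11883 CPM for controls and 9192 to 11338 CPM for cTKO mice. At an unadjusted p under 0.05 in the same test, 1 of them was higher (Slc17a7, log2 fold change 0.22) and 1 lower (Camk2a, -0.21). Of all genes, 6.13% were higher and 5.88% lower at that threshold. After subtraction of the group means, log2 CPM of Trpa1 and of the hippocampal markers correlated with r = 0.64 over the 20 libraries. Among the other marker lists the largest in size was r = -0.57 for the embryonic markers, followed by -0.29 for choroid plexus. Markers of excitatory neurons gave 0.023. These values include the libraries outside control HP, where Trpa1 held 0 to 7 counts and counting error is large. The part of these markers in the Trpa1 difference was not tested.

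In the neocortex, Trpa1 was near the detection limit in both genotypes. Control NCX libraries held 2, 4, 1, 0 and 1 counts, and cTKO NCX libraries held 7, 2, 1, 6 and 1 counts. The groups overlapped, with 8 counts in controls and 17 in cTKO mice when summed. The ratio of cTKO to control was 1.97, with an exact 95% counting interval of 0.807 to 5.28, and the exact permutation test gave p = 0.246. No difference was detected at this depth, and Trpa1 did not enter the test across genes. The interval, which covers counting error only, lies above the ratio of 0.0549 found in the hippocampus.

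The genotype effect on Trpa1 differed between regions, with a log2 interaction of -5.01 and a standard error of 0.849 (FDR 0.0155 by edgeR's quasi-likelihood test over 20 libraries). Of 14192 genes tested for the interaction 0.0564% passed, and among the 9 members Trpa1 alone did. It passed the filter on low counts, and the filter on mean CPM, only through the control HP libraries. With the filter on mean CPM its FDR was 0.0162, and with no filter 0.014. The fit treats the 20 libraries as independent, although both regions came from the same mice. With the library number as a block in all 4 groups, the interaction was -4.99 and the call was lost (FDR 0.0617). Same-numbered libraries of the regions correlated in all 5 pairs for controls only, and the labels do not say which libraries share a mouse. The call was also lost without cTKO NCX 1, which holds 7 counts (FDR 0.107), and without cTKO NCX 4, which holds 6 (FDR 0.0855). With both libraries highest in embryonic markers left out, the interaction was -4.89 with an FDR of 0.0228.

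In controls, the hippocampus exceeded the neocortex in Trpa1 by a log2 difference of 4.31, with a standard error of 0.45 (FDR 1.02e-06). Here too Trpa1 passed both the filter on low counts and that on mean CPM only through control HP, where it is high. With the filter on mean CPM the difference was also 4.31 (FDR 9.89e-07), and with no filter 4.33 (FDR 1.66e-07). In cTKO mice, the hippocampus reached at most 0.169 CPM of Trpa1, which is below the 0.24 CPM of the highest control NCX library. The levels in the libraries of cTKO HP thus lay within the range of those in control NCX.

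Levels were compared between genes as CPM per kilobase of exon, with lengths from GENCODE M21 taken over the exons of all annotated transcripts. Lengths ran from 4263 bases for Trpa1 to 24437 for Trpm3, and the order depends on them. In control HP, Trpc4 was highest at 7.36 ± 0.518 (SD, n = 5), followed by Trpc5 at 5.32 ± 0.73, Trpc6 at 4.35 ± 0.354, Trpm3 at 4.16 ± 1.25 and Trpc1 at 3.69 ± 0.133. Trpv2, Trpm2, Trpm4 and Trpa1 came last, at 2.37, 1.97, 0.559 and 0.48. Neighbouring genes in this order did not overlap between Trpc4 and Trpc5, between Trpc1 and Trpv2, and between Trpm2 and Trpm4. All other neighbours overlapped in range, among them Trpm3 and Trpc1, where Trpm3 was above Trpc1 in 2 of 5 libraries. Trpa1 in control HP was thus close to Trpm4, which exceeded it in 4 of 5 libraries.

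The order differed in control NCX, where Trpc1 led at 3.97 ± 0.341 CPM per kilobase and Trpv2 followed at 3.69 ± 0.364. Trpm2 (2.91), Trpc5 (2.65), Trpc6 (2.45), Trpc4 (2.44) and Trpm3 (2.33) formed a run in which each overlapped the next. Trpm4 at 0.975 and Trpa1 at 0.0222 lay below all of them with no overlap.

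**Figure D2:**
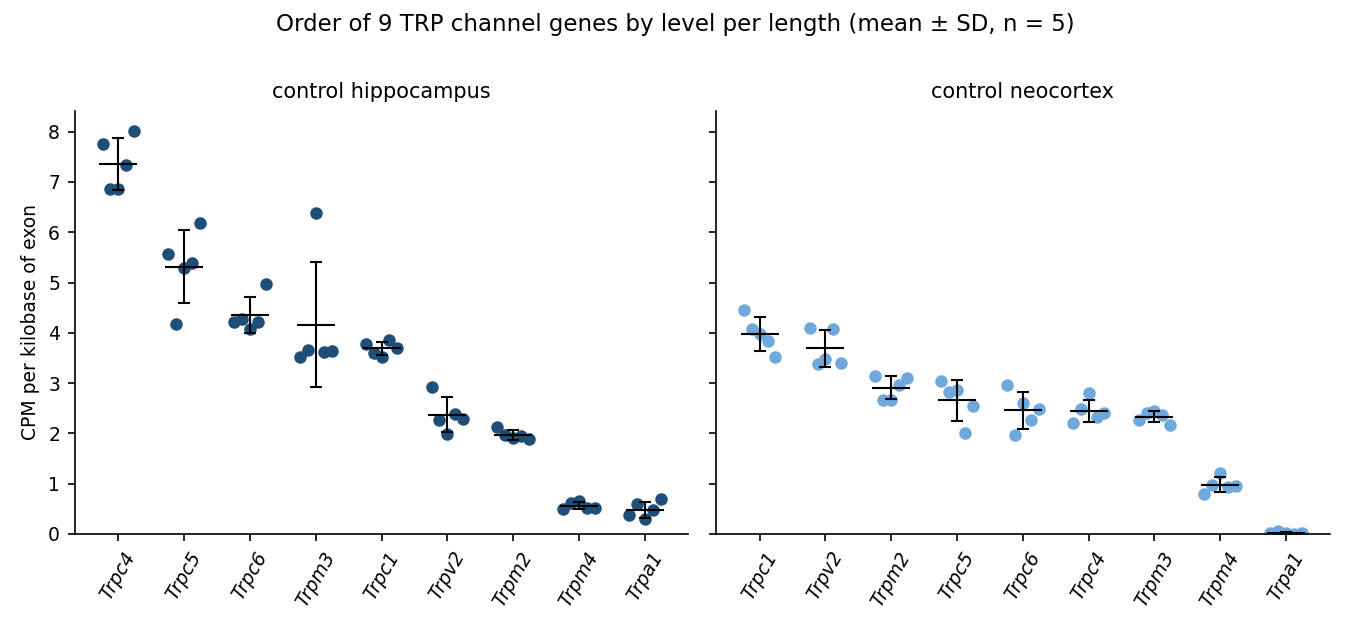
Level per length (CPM per kilobase of exon, vertical axis) of the 9 genes, ordered by their mean, in the control libraries of each region. Points are libraries and bars are mean ± SD (n = 5). Trpc4 leads in hippocampus at 7.36 and Trpc1 in neocortex at 3.97.

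In cTKO HP, Trpc4 stayed first at 7.45 CPM per kilobase, and Trpc6 (5.8) stood above Trpc5 (4.07) in 4 of 5 libraries, whereas Trpc5 stood above Trpc6 in 4 of 5 control HP libraries. Both orders rest on ranges that overlap. Trpa1 was last at 0.0257, below Trpm4 at 0.537 in every library.

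The TRPC genes were compared between genotypes next. Trpc6, a channel opened by diacylglycerol, had 21.4, 21.7, 20.6, 21.3 and 25.2 CPM in the control HP libraries. The cTKO HP libraries had 23.6, 27.7, 37.6, 25.8 and 32.1 CPM. Only control library 5 reached into the cTKO range, above cTKO library 1. The log2 fold change was 0.41 (standard error 0.118, unadjusted p = 0.00404, FDR 0.171 in edgeR), and the exact permutation test gave p = 0.0159. DESeq2 gave an FDR of 0.0499 for Trpc6, and under the 20 other alternatives its FDR stayed between 0.0689 and 0.431. In the neocortex the log2 fold change of Trpc6 was 0.10 (standard error 0.11, FDR 0.822), the ranges being 10 to 15 CPM for controls and 12.6 to 15 CPM for cTKO mice.

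Trpc5, a subunit of receptor-operated channels of principal neurons, had 27.9, 20.9, 26.5, 27 and 31 CPM in control HP and 14.6, 17.5, 22.1, 27 and 20.9 CPM in cTKO HP. The groups overlapped, and 2 cTKO libraries, 1 and 2, lay below every control. The log2 fold change was -0.39 (standard error 0.15, unadjusted p = 0.024, FDR 0.338), and the exact permutation p was 0.0714. Its neocortical fold change was -0.29 (standard error 0.15, FDR 0.524), control libraries having 13.3 ± 2.04 CPM and cTKO libraries 10.9 ± 2.31 CPM (SD, n = 5).

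Trpc4, the closest relative of Trpc5, had 62.2, 55.1, 55.1, 58.9 and 64.4 CPM in control HP and 57.6, 60, 75.4, 47.4 and 58.9 CPM in cTKO HP. The cTKO libraries held both the highest and the lowest value, and the log2 fold change was 0.02 (standard error 0.103, FDR 0.974). In the neocortex Trpc4 ranged over 17.7 to 22.4 CPM among controls and 17.9 to 23.9 CPM among cTKO libraries (log2 fold change 0.05, standard error 0.0919, FDR 0.892). Trpc1, which assembles with the other TRPC subunits, had 29.6 ± 1.07 CPM in control HP and 28.6 ± 2.54 CPM in cTKO HP (SD, n = 5). Its log2 fold changes were -0.05 in HP (standard error 0.0725, FDR 0.86) and -0.11 in NCX (standard error 0.0802, FDR 0.695).

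**Figure D3:**
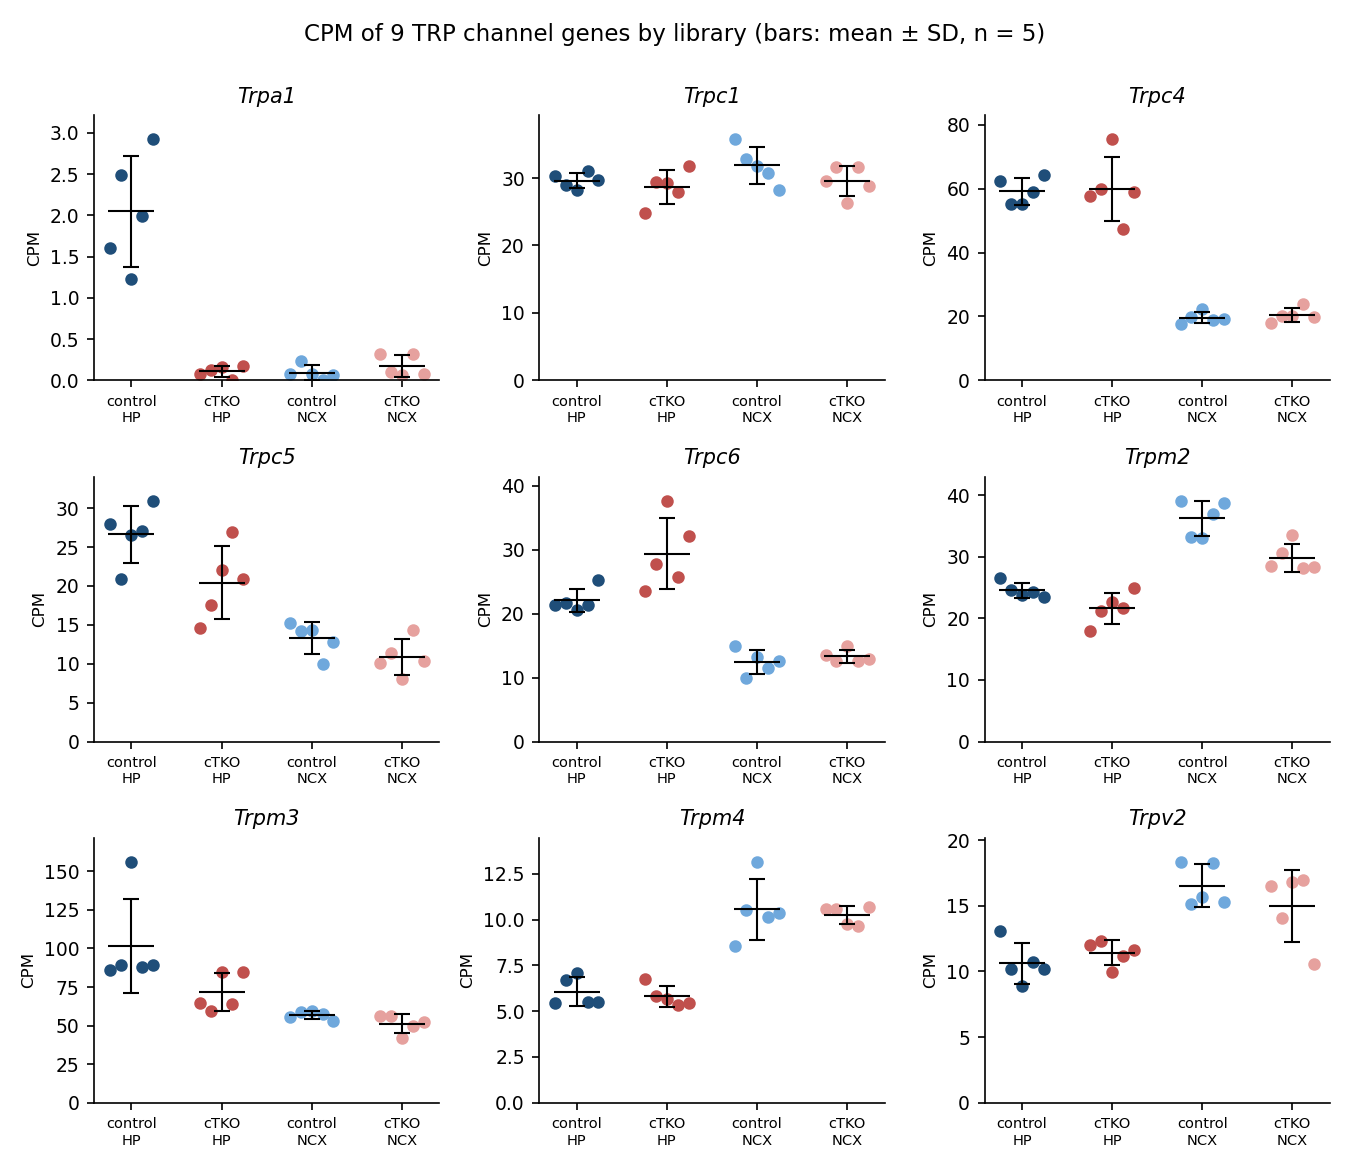
CPM (vertical axes, each from 0) of the 9 genes in each library, by genotype and region. Points are libraries and black bars are mean ± SD (n = 5). Trpa1 in control HP (2.05 ± 0.675) stands above its other 3 groups, and the Trpm3 value of 156 in control HP is that of library 3.

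Of the 3 TRPM genes in the set, Trpm3, a channel activated by heat and by the steroid pregnenolone sulfate, had the highest counts. Control HP libraries had 85.8, 89.4, 156, 88.2 and 89 CPM. The cTKO HP libraries had 64.6, 59.5, 84.9, 63.8 and 84.9 CPM. All cTKO libraries were below all controls, by a margin of under 1 CPM between cTKO library 3 and control library 1, and genotypes did not overlap as lower for 1.25% of all genes tested. The log2 fold change was -0.51 (standard error 0.171, unadjusted p = 0.0111, FDR 0.252 in edgeR), and the exact permutation p was 0.00794.

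Trpm3 and markers of the choroid plexus, the epithelium that secretes cerebrospinal fluid, were both highest in control HP library 3. The summed level of 7 such markers (Ttr, Kl, Folr1, Clic6, Kcnj13, Otx2 and Sostdc1) was 413, 497, 2729, 274 and 78.6 CPM in control HP and 117, 150, 146, 195 and 605 CPM in cTKO HP. None of the 7 markers was at 0 in a hippocampal library. Of these markers 0 passed the FDR by genotype in the quasi-likelihood test, and their median log2 fold change was -1.54. At an unadjusted p under 0.05, 4 of the 7 were lower, where 5.88% of all genes were. Over 20 libraries, with group means subtracted, the correlation of Trpm3 with the marker sum was r = 0.66. This r includes control library 3, and it was not computed without that library. Control library 5, with the lowest sum of the hippocampal libraries, had 89 CPM of Trpm3, close to control libraries 1, 2 and 4. The log2 fold change of Trpm3 was -0.30 without control library 3, -0.37 without control library 3 and cTKO library 5, and -0.31 with the marker sum as a covariate (FDR 0.557).

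**Figure D4:**
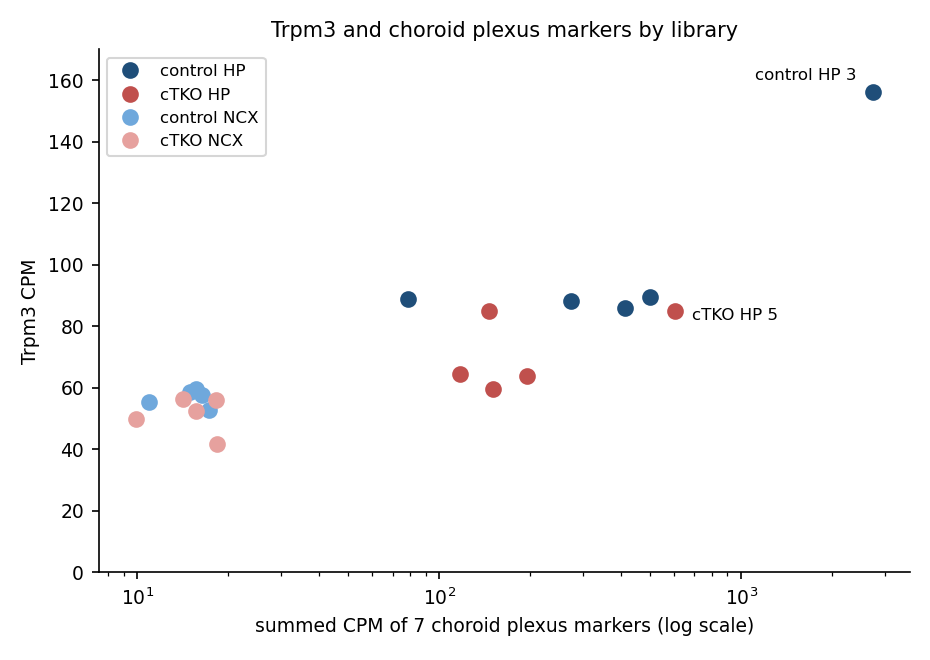
Trpm3 CPM (vertical axis) against the summed CPM of 7 choroid plexus markers (horizontal axis, log scale) in each of the 20 libraries, coloured by group. Control HP 3 is at 2729 and 156, and the NCX libraries lie between 9.86 and 18.3 on the marker axis.

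In the neocortex, where the choroid plexus sum was between 9.86 and 18.3 CPM, Trpm3 had 55.4, 58.5, 59.7, 57.8 and 52.9 CPM in the control libraries and 56.1, 56.2, 41.7, 50 and 52.5 CPM in the cTKO libraries. These overlapped, and the log2 fold change was -0.15 (standard error 0.0799, FDR 0.555). The interaction for Trpm3 was -0.35 (standard error 0.201, unadjusted p = 0.0935 by edgeR). The Trpm3 gene on chr19:22139046-22995410 holds other annotated genes, among them Mir204, and shares 628 of its 24437 bases of exon with them. The annotation and strand setting of the counts are not given, so its level may lack or include reads of these bases.

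Trpm2, a channel gated by ADP-ribose and oxidative stress, had 39.1, 33.2, 33.1, 36.9 and 38.7 CPM in control NCX. In cTKO NCX it had 28.5, 30.6, 33.5, 28.2 and 28.3 CPM. Library 3 alone of the cTKO group reached the control range, and the log2 fold change was -0.28 (standard error 0.0778, unadjusted p = 0.00294, FDR 0.195 in edgeR). None of the 8 members tested in the neocortex passed the FDR in edgeR, where 0.188% of 13843 genes did, and Trpm2 alone had an unadjusted p under 0.05, against 10.4% of genes. DESeq2 gave an FDR of 0.0459 for Trpm2 and called no other member there. In the hippocampus Trpm2 averaged 24.5 CPM in control and 21.6 CPM in cTKO libraries, with a log2 difference of -0.18 (standard error 0.0859, FDR 0.429). Trpm2 is also known from microglia, of whose 6 markers 0 passed the FDR and 0 had an unadjusted p under 0.05 in either region. Their median log2 fold change was -0.07 in HP and -0.11 in NCX. The sum of these markers was 232 to 261 CPM in control NCX and 207 to 248 CPM in cTKO NCX. The part of microglia in the Trpm2 difference was not tested.

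Trpm4, a calcium-activated channel for monovalent cations, had 6.05 ± 0.791 CPM in control HP, 5.81 ± 0.561 in cTKO HP, 10.6 ± 1.66 in control NCX and 10.2 ± 0.509 in cTKO NCX (SD, n = 5). Its log2 fold changes were -0.06 and -0.04 (standard errors 0.125 and 0.112, FDR 0.913 and 0.947). Trpv2, the only TRPV gene of the set, had 10.6 ± 1.54 and 11.4 ± 0.929 CPM in control and cTKO HP, and 16.5 ± 1.63 and 15 ± 2.72 CPM in control and cTKO NCX. Its log2 fold changes of 0.11 and -0.14 did not pass the FDR (0.776 and 0.75), and library cTKO NCX 5 was the lowest of the NCX libraries at 10.6 CPM.

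Over the members, log2 fold changes had a median of -0.06 in HP, against 0.0049 over all genes tested, and of -0.12 in NCX, against 0.009. An unadjusted p under 0.05 was reached in the hippocampus by Trpa1, Trpc5, Trpm3 and Trpc6, 4 of 9, where 12% of all genes did. Trpa1 apart, no member had an interaction with an FDR under 0.05.

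The regions were then compared in control mice. Of the 9 members 5 were higher in hippocampus and 3 lower at an FDR under 0.05, where 59.1% of 13832 genes passed, 29.8% as higher and 29.2% as lower. Besides Trpa1, Trpc4 had a log2 difference in favour of HP of 1.60 with a standard error of 0.0717 (FDR 9.94e-11). The difference was 0.99 for Trpc5, 0.84 for Trpm3 and 0.82 for Trpc6. The 3 that were lower in HP were Trpm4 at -0.79, Trpv2 at -0.64 and Trpm2 at -0.57. Trpc1 did not pass, at -0.11 (standard error 0.0668, FDR 0.17). The HP and NCX ranges of the control libraries were far apart for Trpc4, with 55.1 to 64.4 CPM against 17.7 to 22.4 CPM. For Trpm3 the regional difference was 0.63 without control HP 3, and it kept its call. Markers of the regions moved as labelled for 4 of 4 hippocampal markers tested and for 3 of 4 neocortical markers, the remaining neocortical marker being higher in HP.

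**Figure D5:**
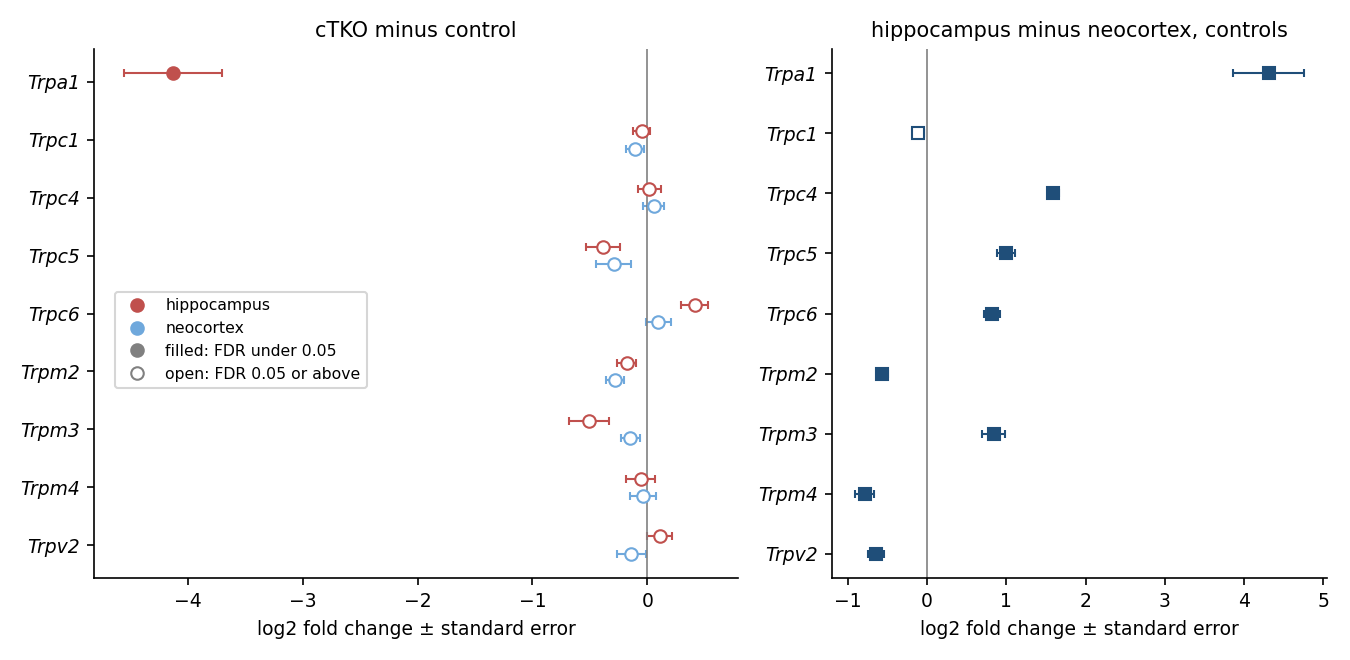
Left, log2 fold change of cTKO against control in each region, and right, log2 difference between hippocampus and neocortex in controls, for the 9 genes. Points are estimates of the quasi-likelihood fit, bars are standard errors and filled points have an FDR under 0.05. Trpa1 at -4.13 is the only filled point on the left, and 8 of 9 are filled on the right.

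Promoters are shown for 4 of the members that differed between regions, the TRPC and TRPV genes among them, since they are the regulatory sequence from which these transcripts start. Those of Trpm2 and Trpm3 are given by their CG counts only. RefSeq promoter sequences (GRCm38.p6) were found for 7 of 9 members, and Trpa1 and Trpm4 had no entry. Given are the 250 bases before the start, 5′ to 3′ on the strand of the gene, with each CG dinucleotide in capitals. Trpc4 (chr3:54155807-54156056, plus strand), Trpc5 (chrX:144688181-144688430, minus strand) and Trpc6 (chr9:8543892-8544141, plus strand) were higher in hippocampus. The first of 3 entries of Trpv2 (chr11:62574236-62574485, plus strand) belongs to a gene that was higher in neocortex.
Trpc4: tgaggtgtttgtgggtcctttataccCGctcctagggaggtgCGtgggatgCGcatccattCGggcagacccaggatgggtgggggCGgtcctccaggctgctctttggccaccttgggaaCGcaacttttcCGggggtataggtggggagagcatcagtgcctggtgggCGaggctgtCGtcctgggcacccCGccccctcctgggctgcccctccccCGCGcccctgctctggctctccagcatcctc
Trpc5: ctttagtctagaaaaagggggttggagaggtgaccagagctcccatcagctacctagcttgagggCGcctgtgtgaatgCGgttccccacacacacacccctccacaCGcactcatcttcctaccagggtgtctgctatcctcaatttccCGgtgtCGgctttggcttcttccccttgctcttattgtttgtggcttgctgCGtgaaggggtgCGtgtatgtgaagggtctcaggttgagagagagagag
Trpc6: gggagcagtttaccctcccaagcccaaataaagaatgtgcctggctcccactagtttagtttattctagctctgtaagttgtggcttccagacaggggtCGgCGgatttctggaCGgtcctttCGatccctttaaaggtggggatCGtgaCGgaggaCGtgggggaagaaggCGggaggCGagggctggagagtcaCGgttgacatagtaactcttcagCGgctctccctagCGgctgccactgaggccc
Trpv2: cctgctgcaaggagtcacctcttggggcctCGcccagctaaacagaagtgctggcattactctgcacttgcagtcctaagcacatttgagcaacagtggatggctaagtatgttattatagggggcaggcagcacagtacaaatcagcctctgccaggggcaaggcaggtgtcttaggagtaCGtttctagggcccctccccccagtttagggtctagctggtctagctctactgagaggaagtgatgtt
These hold 12, 7, 12 and 2 CG dinucleotides. The median over 32851 promoters was 6, and 68.5% of promoters had 12 or fewer, 57% had 7 or fewer and 29% had 2 or fewer. Of the other members, the promoters of Trpc1 and Trpm2 held 17 and 10, and both entries of Trpm3 held 17 and 9. The motif TATAAA, searched on both strands, was present in the promoters of Trpc4 and Trpm2, and in 12.4% of all promoters.

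Other TRP channels were taken as a list of 19, of which 6 were tested in the hippocampus and 8 in the neocortex. By genotype, 0 passed the FDR in either region, where 0.489% (HP) and 0.188% (NCX) of all genes did. An unadjusted p under 0.05 was reached by 0, against 12% and 10.4% of all genes. Their fold changes had a median of -0.03 on the log2 scale in each region. The most abundant were Trpm7, Mcoln1 and Pkd2, a channel kinase, a lysosomal channel and a polycystin, with 63.9, 52.3 and 45.7 CPM in control HP. Trpv6 was lower in control HP than in control NCX by 1.76 on the log2 scale and Mcoln1 by 0.33, both with an FDR under 0.05 (0.000177 and 0.000937). Trpc7 had 3.92 CPM in control HP and 4.18 CPM in control NCX and did not pass (FDR 0.682). Trpv4 had 2.36, 2.53, 8.45, 1.71 and 0.73 CPM in control HP, the highest again being library 3, and 0.901, 0.612, 1.36, 2.2 and 2.87 CPM in cTKO HP. Trpm6 exceeded 1 CPM on average only in NCX, at 1.05 CPM in controls and 1.01 in cTKO mice, and Trpv5 had 0 counts in all 20 libraries. Trpc2 was also listed at 0, but all 2874 bases of its exons are shared with Xndc1 and Xntrpc in GENCODE M21, so that its reads may not have been assigned to it.

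Receptors and signalling proteins that act upstream of TRP channels were 33 in all, with 30 tested in the hippocampus and 29 in the neocortex. By edgeR's quasi-likelihood test 0 passed the FDR by genotype, where 0.489% (HP) and 0.188% (NCX) of all genes did. At an unadjusted p under 0.05, 3 were higher and 5 lower in cTKO HP, where 6.13% and 5.88% of all genes were, and 2 were higher and 10 lower in cTKO NCX, where 5.57% and 4.86% of all genes were higher and lower. Their fold changes had medians of -0.04 (HP) and -0.08 (NCX) on the log2 scale. Homer2, a scaffold that links group I metabotropic receptors to calcium stores, had the smallest p in both, with -0.58 (standard error 0.14, FDR 0.102) and -0.51 (standard error 0.1, FDR 0.064). In the hippocampus Orai1, the pore of store-operated channels, followed at 0.50 (FDR 0.107), and Itpr1, the inositol trisphosphate receptor, at -0.55 (FDR 0.115). In the neocortex Plcb4, a phospholipase C, followed at -0.43 (FDR 0.0712) and Dgkz, a kinase that consumes diacylglycerol, at -0.34 (FDR 0.135). DESeq2 gave FDR values under 0.05 for all of these, at 0.00457 for Homer2, 0.0139 for Orai1 and 0.0055 for Itpr1 in the hippocampus. Homer2 had an FDR under 0.05 in 4 of 21 alternatives in the hippocampus and 5 of 19 in the neocortex. The authors' own edgeR analysis called Homer2 lower in both regions, and they retested it by qRT-PCR in other mice. Between regions in controls, 15 of the 30 tested were higher in HP and 12 lower, where 29.8% and 29.2% of all genes were.

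The genes beside Trpa1 on chromosome 1 were examined as well, 10 on each side. In the hippocampus 13 of them were tested in edgeR and 0 passed the FDR, as 0.489% of all genes did. At an unadjusted p under 0.05, 2 were higher and 1 lower, where 6.13% and 5.88% of all genes were. In the neocortex 14 were tested, and Sulf1, which lies 10 genes away, was higher in cTKO mice by 0.77 (standard error 0.133, FDR 0.0352), where 0.188% of all genes passed the FDR in either direction. The median log2 fold change of these neighbours was 0.04 in each region.

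For each member, the genes whose log2 CPM varied most like it between libraries of a group were taken by Pearson correlation over the 20 libraries after subtraction of the group means, among 13899 genes with a mean CPM above 1. The points share library depth and dissection, and the correlations are a description. For Trpa1 they were Grin3a (r = 0.77), Slitrk1 (0.74) and Bace1 (0.73). Outside control HP, Trpa1 held only 0 to 7 counts per library, so counting error makes up much of its variation there. The values for Trpc1 were r = 0.90 with G3bp2, 0.89 with 2610002M06Rik and 0.88 with Lig4, and for Trpc4 they were 0.82 with Gabbr1, 0.79 with Tox4 and 0.78 with Meaf6. Trpc5 varied most like Epha6 (r = 0.89), Agtpbp1 (0.88) and Zbtb38 (0.88), and Trpc6 like Golph3 (0.81), Klf9 (0.78) and Cx3cl1 (0.78). Among the TRPM genes, Trpm2 was closest to Kcnc1 (r = 0.79), Gne (0.78) and Csnk2a2 (0.78), Trpm3 to Acad8 (0.85), Steap2 (0.84) and C130071C03Rik (0.80), and Trpm4 to Smim1 (0.81), Pfn4 (0.80) and Abcc6 (0.79). Trpv2 was closest to Gfod2 (r = 0.83), Klc1 (0.82) and Sult4a1 (0.82). No gene was shared between these lists of 3. The lists changed with Spearman's rho, by which 1 to 4 of the 5 genes most alike to each member were also among the 5 by Pearson's r, and for Trpa1 Grin3a alone was.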

How the data were processed

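Total RNA of the neocortex and hippocampus was enriched for poly-A transcripts and sequenced as single 100-base reads. The authors aligned the reads to mm10 with STAR 2.5.4a, counted them per gene with HTSeq and deposited raw counts for each library by symbol. The HTSeq version, the annotation and the strand setting are not given in the sources used here. Groups were taken from the labels.

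From the counts, genotypes were compared in each region with edgeR 4.0.16 in R 4.3.3 (TMM, quasi-likelihood test, genes with CPM above 1 in at least 5 libraries, Benjamini-Hochberg FDR under 0.05 over all genes tested). Region in controls and the interaction were fitted likewise. CPM uses TMM-scaled library sizes, and log2 CPM a prior count of 2. Permutation tests were exact, two-sided and unadjusted, 18 for the 9 members. Intervals and the floor of 3 counts describe counting error alone, as PCR copies of a molecule were not removed by molecular identifiers. Lengths and positions are from GENCODE M21. DESeq2 1.42.0 was an alternative. The fits were tested on simulated data.

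Named genes were all members, other TRP channels with an FDR under 0.05 or a mean CPM above 1, the 3 upstream genes of smallest p in each region, the 3 genes most alike to each member, and called neighbours of Trpa1. A gene that this rule names is not reported here. Members and lists were chosen with earlier results of these data known, the fall of Trpa1 included, so their calls are not independent evidence. Libraries with the same number in control HP and control NCX deviated together (5 of 5 correlations between 0.13 and 0.357) and were treated as paired in the block. A shared number alone does not show a shared mouse. The block changed no member's call between the regions in controls. No libraries held identical counts.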

Additional observations from a re-analysis of the deposited data

Results flagged for a closer look

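The interaction of region and genotype for Trpa1 was -5.01 on the log2 scale, as the transcript was lower in cTKO hippocampus and not in cTKO neocortex, and the difference between the regions was itself tested (edgeR, FDR 0.0155, and 0.0617 with the library number as a block). It rests on NCX groups of 8 and 17 counts in all.

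In control HP, library 3 stood far above the other libraries for Trpm3, at 156 CPM, with a gap to the next of 0.932 of the group's range. The same library had the highest sum of choroid plexus markers (2729 CPM) and the highest Trpv4 level (8.45 CPM). Library 5 of the same group stood apart for Trpc6, at 25.2 CPM, with a gap of 0.745 of the range. In all, 36 groups of 5 libraries were examined in this way and 2 had such a library, where chance gives about 1 in 20.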

How the results depend on the processing

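The fall of Trpa1 in the hippocampus was called under all 21 alternatives, with log2 fold changes from -4.46 to -3.85, and its regional difference in controls under all 17, from 4.03 to 4.94. With 1 library left out its fold change ranged from -4.32 to -3.85 in the hippocampus. The filter in 5 libraries left Trpa1 untested without any control HP library and without the 2 libraries highest in choroid plexus (0 members called). This follows from the construction of the filter. The filter on mean CPM was added after seeing the data, and Trpa1 also passed it only through control HP. With it Trpa1 was called in each of these fits, except that it was not tested for the interaction without control HP 5. The interaction of Trpa1 was called under 24 of 27 alternatives, ranged from -5.64 to -4.69 with 1 library left out, and was -4.99 (FDR 0.0617) with the replicate block (0 members called). Members called with 1 library left out ranged from 0 to 1 in the hippocampus and for the interaction, was 0 throughout in the neocortex, and ranged from 7 to 8 between regions. Between cTKO HP and cTKO NCX, same-numbered libraries 1, 2 and 3 correlated (r = 0.366, 0.371 and 0.415), while 4 and 5 did not (r = -0.112 and -0.144). The numbers thus give no complete pairing there. Between genotypes, whose mice differ, same-numbered libraries had r from -0.143 to 0.237. In the neocortex 4 of 5 control libraries correlated best with the cTKO library of their own number, so a shared number need not mark a shared mouse. The highest correlation of any pair was between cTKO HP 4 and cTKO NCX 5 (r = 0.66), the libraries highest in embryonic markers, and whether they share a mouse is not given in the labels. With the block the log2 fold change of Trpa1 in the hippocampus was -4.12 (FDR 0.00543).

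Calls over all genes moved more. In the hippocampus 67 genes were called, against 331 with DESeq2 (2 members, Trpa1 and Trpc6), 258 with the exact test, 195 in a joint fit of 20 libraries, 33 with the choroid plexus covariate and 15 to 149 with 1 library left out. In the neocortex 26 were called, against 221 with DESeq2 (1 member, Trpm2), 163 with the exact test, 42 without a filter, 12 with the block, 17 in the joint fit and 7 to 133 with 1 library left out. The interaction called 8, against 26 with DESeq2, 18 with the block and 5 to 20 with 1 library left out. The region difference called 8169 genes, and 7618 to 8026 with 1 library left out. The causes were not tested.

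Values near 0 changed sign without being called. In the hippocampus Trpc4 was -0.027 with the choroid plexus covariate and Trpm4 was 0.028 without the 2 libraries highest in choroid plexus, and with 1 library left out they ranged from -0.079 to 0.085 and from -0.124 to 0.0034. In the neocortex they ranged from -0.017 to 0.102 and from -0.11 to 0.049. For the interaction they were 0.022 and 0.014 without the libraries highest in embryonic markers, and with 1 library left out Trpc4 ranged from -0.127 to 0.039, Trpc5 from -0.215 to 0.040 and Trpm4 from -0.103 to 0.052. Depth limits Trpa1 outside control HP, where libraries held 0 to 7 counts.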

Other observations

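Among the TRP channels with few counts in this tissue, Trpm5, the channel of taste cells, had 16 counts in cTKO HP 4 and 15 counts in cTKO NCX 5, and between 0 and 4 counts in each of the other 18 libraries. These 2 libraries also had the highest sums of embryonic markers, at 618 and 1010 CPM. Trpv1, the capsaicin receptor, had 15 counts in cTKO HP 1 and between 0 and 6 counts in each of the other 19 libraries. Mcoln2 and Mcoln3, lysosomal channels related to Mcoln1, averaged under 0.1 CPM in every group, and 7 counts of Mcoln3 were in cTKO HP 4.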
